A study of Mus musculus with 6 samples.

Results

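The 10 genes described here carry out transsulfuration (Cth, Cbs), cystine uptake (Slc7a11), glutathione synthesis (Gclc, Gclm, Gss), glutathione recycling and use (Gsr, Gpx4) and glutathione breakdown (Chac1, Ggct). They were listed by gene symbol from their known roles, at a time when earlier results of these data were known. All 10 of them were among the 12669 genes that passed the filter on low counts, out of 55487 genes listed. They were measured in B16F10, a mouse melanoma cell line, by sequencing of polyA RNA. Control cells were infected with a scramble shRNA (shCtr, genotype label WT, n = 3), and knockdown cells with an shRNA against Osgep (shOSGEP, genotype label KD OSGEP, n = 3). Both groups therefore carried an shRNA, both were grown in the same medium, and the 3 libraries of each group came from independent infections. The knockdown rested on 1 hairpin, the one numbered 2 in the labels, and the labels give no time after infection. OSGEP, the enzymatic core of the KEOPS complex, helps to make t6A, a modified base in the anticodon loop of tRNAs that read ANN codons, and the comparison asks how the mRNAs of this pathway differ when it is depleted.

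Cysteine limits the synthesis of glutathione, the main soluble thiol of the cell. Cells obtain it by making it from homocysteine, through cystathionine beta-synthase (Cbs) and cystathionine gamma-lyase (Cth), or by importing cystine through the xCT antiporter, whose light chain is Slc7a11 and whose heavy chain is Slc3a2. Glutamate-cysteine ligase, made of a catalytic subunit (Gclc) and a modifier subunit (Gclm), and glutathione synthetase (Gss) build the tripeptide. Glutathione reductase (Gsr) returns oxidised glutathione to its reduced form, and Gpx4 spends it to reduce lipid peroxides, which protects cells from ferroptosis. Chac1 cleaves glutathione in the cytosol, and Ggct acts on gamma-glutamyl amino acids, which form when glutathione is broken down at the cell surface. Several of these genes are known targets of ATF4, which acts in the integrated stress response, and several of NRF2 (Nfe2l2), which acts in the antioxidant response.

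The 250 bases upstream of the annotated starts of Slc7a11, Chac1 and Gclm are shown as those of known ATF4 (Slc7a11, Chac1) or NRF2 (Gclm) targets that hold a match to the motif of that factor. RefSeq promoter windows of GRCm38.p6, from 250 bases before to 50 bases after the start, were given for 7 of the 10 genes (not for Cth, Gclc and Gsr). Capitals mark matches on either strand to the C/EBP-ATF response element, searched as TGATGNAA, in Slc7a11 and Chac1, and to the antioxidant response element, searched as TGACNNNGC, in Gclm.
Slc7a11: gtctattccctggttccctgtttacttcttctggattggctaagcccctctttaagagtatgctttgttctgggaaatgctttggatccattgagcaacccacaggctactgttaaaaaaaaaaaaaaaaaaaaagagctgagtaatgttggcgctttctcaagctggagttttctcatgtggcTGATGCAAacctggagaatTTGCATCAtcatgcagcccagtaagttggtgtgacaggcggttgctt
Chac1: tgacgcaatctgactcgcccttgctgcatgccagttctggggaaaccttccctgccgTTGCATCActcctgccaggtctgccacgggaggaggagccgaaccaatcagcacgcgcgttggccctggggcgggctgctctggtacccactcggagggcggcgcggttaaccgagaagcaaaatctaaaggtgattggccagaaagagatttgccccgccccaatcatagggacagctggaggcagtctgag
Gclm: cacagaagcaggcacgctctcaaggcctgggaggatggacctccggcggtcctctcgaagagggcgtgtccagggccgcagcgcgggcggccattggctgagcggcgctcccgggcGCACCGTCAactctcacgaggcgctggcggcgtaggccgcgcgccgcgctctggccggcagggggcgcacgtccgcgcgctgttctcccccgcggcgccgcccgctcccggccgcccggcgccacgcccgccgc
The Slc7a11 stretch lies at chr3:50443614-50443863 on the minus strand, the Chac1 stretch at chr2:119350992-119351241 on the plus strand and the Gclm stretch at chr3:122245307-122245556 on the plus strand, each written 5′ to 3′ along its gene. The C/EBP-ATF letters began at positions -66 and -47 from the start of Slc7a11, on opposite strands, and at position -193 from the start of Chac1. They occurred in 3.97% of 32851 promoter windows of the same length. The antioxidant letters began at position -134 in Gclm and at positions -174 and 6 in Ggct, and they occurred in 12.4% of all windows. Neither motif was found in the windows of Cbs, Gss and Gpx4. A match describes letters only and does not show a bound site.

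Libraries held between 18915587 and 29487384 counts. Values per library are CPM, that is, counts divided by the TMM-corrected size of the library, and follow the order of the replicate numbers. Osgep was measured at 20.6, 58.6 and 21.8 CPM in shCtr against 4.28, 0.542 and 5.52 CPM in shOSGEP, so each library lay in the direction of its label. Within each group the libraries differed by the GC content of transcripts. Genes with transcripts under 40% GC were compared with the other libraries of the same group. Their median deviation was 2.35, -3.22 and 0.891 log2 units in shCtr and 1.43, -1.31 and -0.136 log2 units in shOSGEP. The largest deviation was that of replicate 2 in shCtr and that of replicate 1 in shOSGEP. shOSGEP replicate 2 had the lowest Osgep level and the lowest sum over 7 melanocytic markers, 3551 CPM. The other shOSGEP libraries reached up to 18083 CPM, and the shCtr libraries ran from 17038 to 29599 CPM. Of 6 leukocyte markers, 4 had no count, and the sum stayed between 0 and 0.504 CPM in every library. The sums over 3 endothelial, 3 fibroblast and 4 epithelial markers reached at most 0.310, 4.11 and 0.884 CPM. In bulk RNA, fewer cells of a type and less RNA per cell cannot be told apart, and the part of these library differences in the results was not tested. Deviations of same-numbered libraries from their group means correlated across genes at 0.811, 0.557 and 0.196 for numbers 1, 2 and 3. The value for number 3 is low, and differently numbered libraries were not compared in this way. The log2 ratio of shOSGEP to shCtr within each number is given beside the fit as a description.

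Of the 10 genes, 2 passed the threshold of the study (a Log2FC beyond 0.5 with an unadjusted p under 0.05), and both were higher in shOSGEP. They were Cth, the last enzyme of transsulfuration, at 7.40-fold, and Chac1, the cytosolic glutathione-degrading enzyme, at 3.68-fold. No gene passed in the lower direction. Over all genes tested, 1.59% passed as higher and 0.426% passed as lower. After adjustment of the edgeR quasi-likelihood test over all genes, no member lay under 0.05. Over all genes tested, 0 of 12669 (0%) lay under 0.05, and the smallest adjusted p in edgeR was 1.00. Unadjusted, 256 genes lay under 0.05. DESeq2 called 1 of the 10, Cth (adjusted p = 0.0272), against 0.111% of all genes. The groups did not overlap for 2 members, both higher in shOSGEP, and for none in the lower direction, where 3.49% and 2.87% of all genes were separated in these directions. In 6 members the level was higher in shOSGEP at each of the 3 replicate numbers, which held for 17.6% of all genes. The median Log2FC of the 10 genes was 0.51, with 7 above and 3 below 0, and that of all genes was -0.03.

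**Figure D1:**
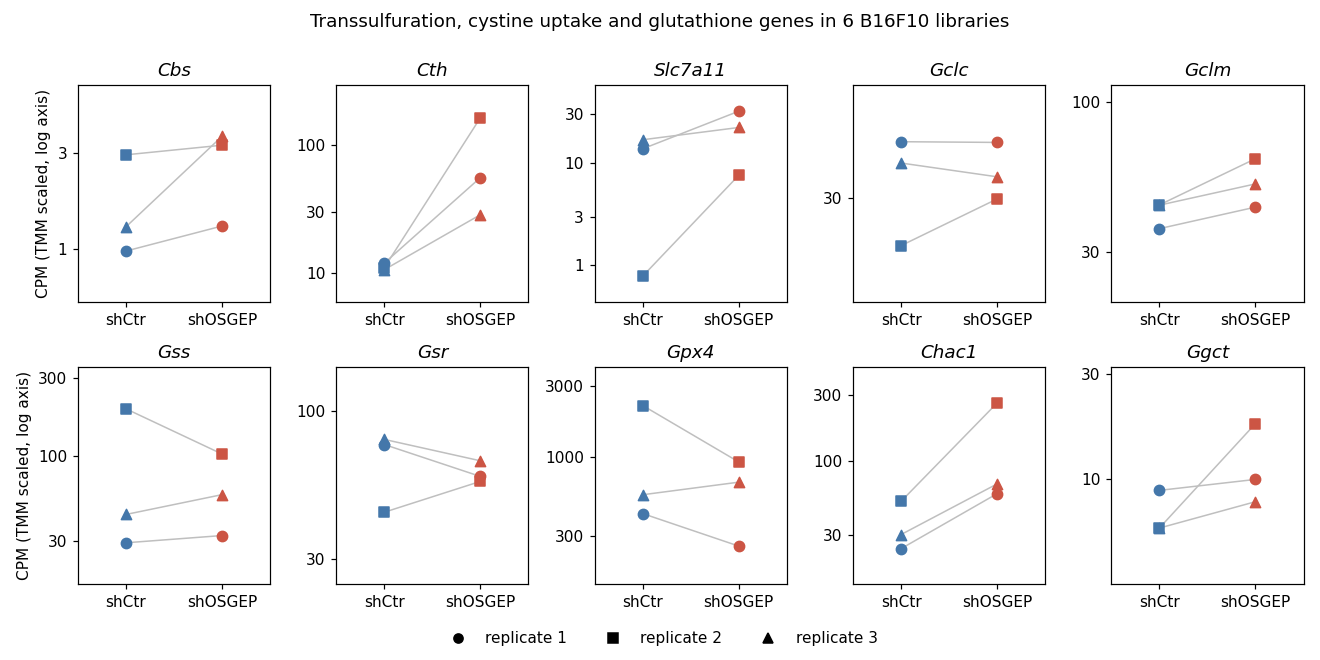
CPM after TMM scaling (log axis) of each of the 10 genes in the 3 shCtr (blue) and 3 shOSGEP (red) libraries. Symbols mark the replicate number and grey lines join same-numbered libraries. Cth and Chac1 are the 2 panels in which every shOSGEP library lies above every shCtr library, and shOSGEP replicate 2 is the highest library in both.

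Cth (ENSMUSG00000028179, chr3:157894248-157925077, minus strand, GRCm38) encodes the lyase that releases cysteine from cystathionine. It was measured at 11.9, 11.01 and 10.6 CPM in shCtr against 55.7, 164 and 28.6 CPM in shOSGEP. The control libraries thus lay close together, and the knockdown libraries differed widely, with replicate 2 the highest. The means were 11.2 ± 0.684 and 82.8 ± 71.6 CPM (SD, n = 3 each). Log2FC was 2.89 (SE 0.672, 95% interval 1.35 to 4.43), with an unadjusted p of 0.00243 and an adjusted p of 1.00 in edgeR. Within replicate numbers 1, 2 and 3 the log2 ratios were 2.21, 3.89 and 1.42. Without shOSGEP replicate 2 the Log2FC was 1.92 (edgeR, unadjusted p = 0.00488), and without both replicate 2 libraries it was 1.90 (edgeR, unadjusted p = 0.00295). Cth was the member that kept an unadjusted p under 0.05 under each of 18 alternative settings, over which its Log2FC ran from 1.90 to 3.29. The predicted transcript Gm43314 overlaps it on the same strand and held between 0 and 80 counts, against 224 to 4232 counts for Cth.

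Cbs (ENSMUSG00000024039, chr17:31608894-31637238, minus strand) encodes the synthase that precedes Cth in the pathway. Its counts were low, with 23, 60 and 28 counts in shCtr and 28, 85 and 86 counts in shOSGEP, or 0.977, 2.95 and 1.29 CPM and 1.30, 3.29 and 3.65 CPM. The groups overlapped, although each shOSGEP library lay above the shCtr library of the same number, with log2 ratios of 0.38, 0.15 and 1.44. Log2FC was 0.66 (95% interval -0.87 to 2.19, edgeR, unadjusted p = 0.351). A floor of 3 counts corresponds to between 0.116 and 0.147 CPM in these libraries.

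Slc7a11 (ENSMUSG00000027737, chr3:49892526-50443614, minus strand), the light chain of the cystine antiporter and the member with the longest and most AT-rich transcript, was measured at 13.8, 0.787 and 16.9 CPM in shCtr against 32.1, 7.60 and 22.2 CPM in shOSGEP. The value of shCtr replicate 2 rested on 16 counts, where the other controls held 324 and 366. The groups overlapped because shOSGEP replicate 2 lay below the controls numbered 1 and 3. Within each number shOSGEP was higher, with log2 ratios of 1.21, 3.14 and 0.40. Log2FC was 0.98 (SE 0.963, 95% interval -1.23 to 3.18) with an unadjusted p of 0.340 in edgeR. The replicate block gave 1.52 (edgeR, unadjusted p = 0.0505), and leaving out both replicate 2 libraries gave 0.82 (edgeR, unadjusted p = 0.0396), which would pass the threshold of the study. Leaving out shCtr replicate 2 alone gave 0.42 (edgeR, unadjusted p = 0.483), leaving out shOSGEP replicate 1 gave 0.51 (edgeR, unadjusted p = 0.643), and limma-voom with quality weights gave 0.53 (unadjusted p = 0.287). Over the 18 alternatives Log2FC ran from 0.42 to 1.52, with an unadjusted p under 0.05 in 3 of them. Slc3a2, the heavy chain that Slc7a11 shares with other amino acid transporters, was measured at 184, 558 and 225 CPM in shCtr against 330, 397 and 331 CPM in shOSGEP. Its Log2FC was 0.13 (edgeR, unadjusted p = 0.806) with all libraries and 0.69 (edgeR, unadjusted p = 0.0559) without the replicate 2 libraries, since shCtr replicate 2 held its highest value.

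The 3 genes of glutathione synthesis did not pass the test in either direction. Gclc (ENSMUSG00000032350, chr9:77754535-77794485, plus strand), which carries the catalytic activity of the ligase, was measured at 53.6, 18.2 and 43.0 CPM in shCtr against 53.2, 29.6 and 37.3 CPM in shOSGEP. Log2FC was 0.06 (95% interval -1.10 to 1.23) and the interval spans fold changes from 0.467 to 2.34. Gclm (ENSMUSG00000028124, chr3:122245557-122270732, plus strand), the modifier subunit, was measured at 36.2, 43.8 and 43.7 CPM in shCtr against 43.0, 63.4 and 51.8 CPM in shOSGEP. It was higher within each replicate number, with log2 ratios of 0.25, 0.53 and 0.24, but replicate 1 of shOSGEP lay below 2 of the controls. Its Log2FC was 0.35 (95% interval -0.52 to 1.23, edgeR, unadjusted p = 0.382). The opposite-strand transcript Gm17494 overlaps Gclm and held 49 to 157 counts, and the reads of the pair cannot be told apart without strand. The pseudogene Gm6061 overlaps Gclm on the same strand and held 6 to 52 counts. Gss (ENSMUSG00000027610, chr2:155563181-155592810, minus strand), which adds glycine to complete the tripeptide, was measured at 29.2, 194 and 43.6 CPM in shCtr against 32.4, 102 and 57.7 CPM in shOSGEP. The replicate 2 library was the highest of both groups. Log2FC was -0.47 (95% interval -2.22 to 1.28) with all libraries, and 0.82 without shCtr replicate 2 alone. Gss overlaps Acss2 on the opposite strand, and 9.98% of the 31-base words of its transcript also occur in other genes.

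Gsr (ENSMUSG00000031584, chr8:33652523-33698163, plus strand), the reductase, was measured at 75.9, 43.8 and 79.1 CPM in shCtr against 58.5, 56.2 and 66.5 CPM in shOSGEP. The shOSGEP libraries fell within the range of the controls. Log2FC was -0.13 (95% interval -1.06 to 0.80, edgeR, unadjusted p = 0.751). Gpx4 (ENSMUSG00000075706, chr10:80047166-80056439, plus strand), the lipid peroxidase, was measured at 422, 2217 and 564 CPM in shCtr against 256, 932 and 684 CPM in shOSGEP. It was lower in shOSGEP at replicate numbers 1 and 2 and higher at number 3, with log2 ratios of -0.72, -1.25 and 0.28. Log2FC was -0.77 (SE 0.757, 95% interval -2.51 to 0.96), and it was 0.34 without shCtr replicate 2. Gpx4 values carry the uncertainty of read assignment between near-identical copies. Of the 31-base words of its transcript, 66.8% also occur in other genes, mainly the pseudogene Gpx4-ps2, which held 145 to 1178 counts.

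Chac1 (ENSMUSG00000027313, chr2:119351229-119354381, plus strand) was measured at 23.8, 51.9 and 30.1 CPM in shCtr against 58.9, 262 and 69.2 CPM in shOSGEP. Each shOSGEP library lay above all controls, and replicate 2 was the highest library of each group. The means were 35.3 ± 14.7 and 129.95 ± 114 CPM (SD, n = 3 each). Log2FC was 1.88 (SE 0.670, 95% interval 0.34 to 3.42), with an unadjusted p of 0.0222 and an adjusted p of 1.00 in edgeR. The log2 ratios within replicate numbers were 1.30, 2.33 and 1.20. The threshold was no longer passed without shOSGEP replicate 2, where Log2FC was 0.88 (edgeR, unadjusted p = 0.112), without shCtr replicate 1 (1.66, edgeR, unadjusted p = 0.0579), without shCtr replicate 3 (1.78, edgeR, unadjusted p = 0.0702) and without both replicate 3 libraries (2.08, edgeR, unadjusted p = 0.0639). It was passed without both replicate 2 libraries (1.25, edgeR, unadjusted p = 0.00489). Ggct (ENSMUSG00000002797, chr6:54982580-54992950, minus strand), the cyclotransferase of gamma-glutamyl amino acids, was measured at 8.88, 5.997 and 5.99 CPM in shCtr against 9.96, 17.8 and 7.89 CPM in shOSGEP. The groups overlapped, since shOSGEP replicate 3 lay below shCtr replicate 1. Log2FC was 0.77 (95% interval -0.38 to 1.92, edgeR, unadjusted p = 0.161), with log2 ratios of 0.16, 1.56 and 0.39.

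The libraries differed by the GC content of transcripts, and the 10 genes span this range, from 40.7% GC in Slc7a11 and 42.1% in Gclm to 57.4% in Chac1 and 60.2% in Gpx4. A smooth trend of each library's deviation on GC content and transcript length, fitted over all tested genes, held between 17.4% and 61.7% of the variance of the deviations, the most in shCtr replicate 2. In that library Slc7a11 lay at -3.55 log2 units from its mean over the 6 libraries, where the trend for its GC content and length was -2.52. Gpx4 lay 1.74 log2 units above its mean, where the trend was 1.39. With the trend taken off, the SD among the controls fell from 2.39 to 0.634 log2 units for Slc7a11 and from 1.28 to 0.209 log2 units for Gpx4. The SD among the controls rose in turn from 0.0867 to 0.682 log2 units for Cth, from 0.788 to 1.25 for Cbs and from 0.323 to 0.414 for Ggct. Gclm did not follow the trend, which was -2.02 in shCtr replicate 2 against a measured -0.08. For Gclm the SD among the controls was 0.157 log2 units as measured and 1.65 log2 units with the trend taken off. The Log2FC of Gclm under GC and length offsets, -0.62 (edgeR, unadjusted p = 0.478), therefore takes off a trend that the measured values of this gene did not show. Cth was measured at -1.16, -1.27 and -1.33 log2 units in the controls, where the trend was 0.468, -0.980 and -0.114. Cbs was measured at 0.554 in shCtr replicate 2, where the trend was -0.578. The same limit holds for the Log2FC of Cth and Cbs under offsets.

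**Figure D2:**
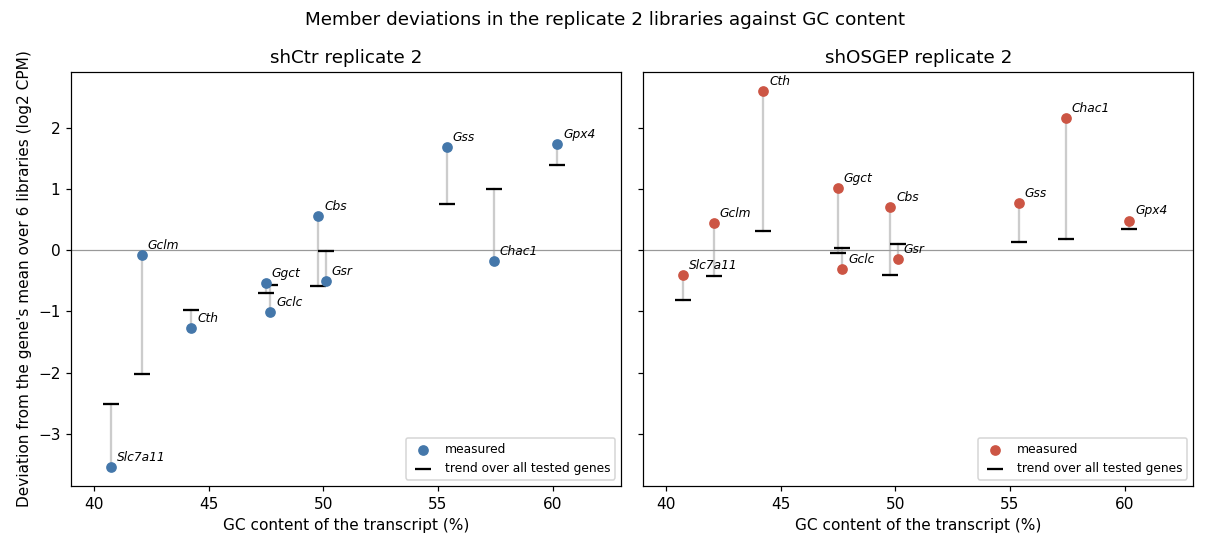
Deviation of each gene from its own mean over the 6 libraries (log2 CPM) against the GC content of its transcript, in shCtr replicate 2 (left) and shOSGEP replicate 2 (right). Points are measured values, short black lines are the trend over all tested genes, and grey lines join the pair. In shCtr replicate 2 the trend is -2.52 for Slc7a11 and 1.39 for Gpx4, and in shOSGEP replicate 2 Cth and Chac1 lie at 2.61 and 2.16, where the trend is 0.32 and 0.19.

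In shOSGEP replicate 2, Cth lay 2.61 log2 units above its mean where the trend was 0.32, and Chac1 lay 2.16 log2 units above where the trend was 0.19. With the trend taken off, the groups remained separate for both. They were then also separate for Slc7a11, at 2.70, 2.33 and 3.56 log2 CPM in shCtr and 3.74, 3.75 and 4.03 log2 CPM in shOSGEP. How many of all genes were separate with the trend taken off was not counted, so these separations have no background to be read against. In the edgeR fit with GC and length offsets the Log2FC was 2.29 for Cth (unadjusted p = 0.00662), 2.04 for Chac1 (unadjusted p = 0.00300) and 0.88 for Slc7a11 (unadjusted p = 0.0464). With the replicate block added they were 2.10 (edgeR, unadjusted p = 8.47e-04), 1.82 (edgeR, unadjusted p = 0.0143) and 0.97 (edgeR, unadjusted p = 0.0155), all with an adjusted p of 0.540. That fit placed 484 genes higher and 359 lower past the threshold of the study, against 202 and 54 without offsets or block.

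**Figure D3:**
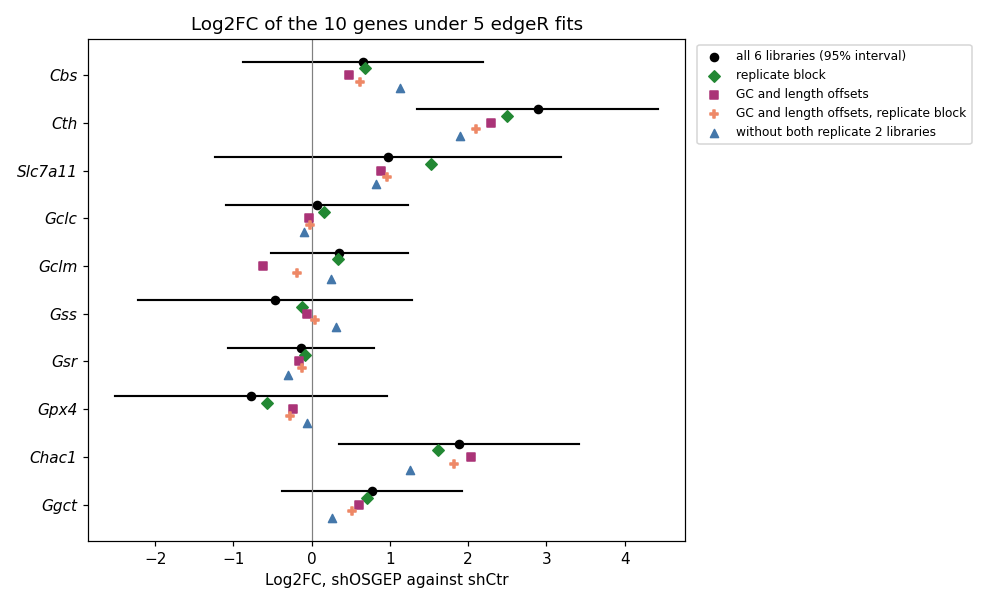
Log2FC of shOSGEP against shCtr for the 10 genes under 5 edgeR fits. Black points and bars are the fit to all 6 libraries with its 95% interval, and the other symbols are the replicate block, the GC and length offsets, both together, and the fit without the replicate 2 libraries. Cth (1.90 to 2.89), Chac1 (1.25 to 2.04), Slc7a11 (0.82 to 1.52), Cbs (0.47 to 1.13) and Ggct (0.26 to 0.77) stay above 0 in all 5 fits. Gsr and Gpx4 stay below 0, and Gclc, Gclm and Gss lie on both sides of 0.

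Levels were compared between genes as TPM, counts divided by the length of 1 transcript per gene and scaled within each library. That transcript was the one with the longest complete coding part, and then the longest. For Ggct it was 3960 bases long, 1 of 6 transcripts. The levels and their order depend on this choice, and other transcripts were not tested. Gpx4 was the most abundant of the 10 mRNAs in both groups, with 1533 ± 823 TPM in shCtr and 1217 ± 540 TPM in shOSGEP (SD, n = 3 each), at the 99.1 and 99.0 percentiles of all genes tested. Gss (63.1 TPM), Gsr (47.6 TPM) and Chac1 (35.3 ± 4.33 TPM) followed in shCtr, then Gclc (22.2 TPM), Gclm (13.2 TPM) and Cth (11.1 ± 3.90 TPM). From Gss to Cth, neighbours in this order differed by less than the larger SD of the pair, while the steps from Gpx4 to Gss and from Cth to Ggct were larger. Ggct (3.25 TPM), Slc7a11 (2.42 TPM) and Cbs (0.436 TPM) were the least abundant. In shOSGEP, the next highest means after Gpx4 were those of Chac1, at 149 ± 110 TPM, and Cth, at 86.8 ± 62.9 TPM. By these means Cth stood at the 42.0 percentile in shCtr and the 86.0 in shOSGEP, and Chac1 at the 70.3 and the 92.1. Replicate 2 was the highest shOSGEP library of both, with Cth at 71.8, 156 and 32.8 TPM and Chac1 at 84.1, 276 and 88.1 TPM. Chac1, Cth and Gss (63.3 ± 25.8 TPM) differed by less than the larger SD of each neighbouring pair, and in replicate 3 Cth lay below Gss (61.3 TPM) and Gsr (51.9 TPM). Slc7a11 reached 4.86 TPM and Cbs 0.875 TPM in shOSGEP, at the 23.6 and 6.13 percentiles.

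Ratios between genes of adjoining steps do not depend on the scaling between libraries. They still carry the trend on GC content and length where the 2 genes differ in these. The ratio of Gpx4 to Gsr, for example, was 14.9, 136 and 19.1 in shCtr. In total 7 ratios were compared by a two-sided exact permutation test, whose smallest p with 3 libraries against 3 is 0.1. The test permuted all 6 libraries and did not use the replicate numbers. The ratio of Cth to Cbs, the enzymes of transsulfuration in reverse order, was 41.9, 12.8 and 28.2 in shCtr and 147, 171 and 26.8 in shOSGEP on the TPM scale, and the groups overlapped (exact p = 0.3, adjusted over the 7 ratios 0.525). The ratio of Cth to Gclc, cysteine synthesis against its first use for glutathione, was 0.420, 1.14 and 0.465 in shCtr and 1.98, 10.4 and 1.45 in shOSGEP, with no overlap (exact p = 0.1, adjusted 0.525). The ratio of the ligase subunits Gclc to Gclm was 2.42, 0.680 and 1.61 in shCtr and 2.02, 0.763 and 1.17 in shOSGEP (exact p = 0.8, adjusted 0.8). In both groups it was lowest in replicate 2. The ratio of Chac1 to Ggct, the cyclotransferases of breakdown, was 6.49, 20.9 and 12.1 in shCtr and 14.3, 35.5 and 21.2 in shOSGEP (exact p = 0.2, adjusted 0.525). The exact p was 0.7 for Slc7a11 to Slc3a2, 0.3 for Chac1 to Gclc and 0.8 for Gpx4 to Gsr.

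Because t6A serves the reading of ANN codons, the share of such codons was counted in the coding part of each gene. It was lowest in Chac1, where 15.7% of 223 codons begin with A, at the 1.84 percentile of 11512 tested coding genes, whose median was 26.9% and whose quartiles were 23.6% and 29.8%. Cth had 25.6% ANN codons (39.3 percentile). Ggct had the most of the 10, at 31.9% (88.3 percentile), and Gsr and Gclc each had 29.4%. The other 5 genes ran from 24.3% in Gss to 28.1% in Gclm. The 2 genes past the threshold lay below the median of all genes, and so did Gss (24.3%) and Gpx4 (24.5%), which did not pass. The data hold mRNA levels and no measure of translation.

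Neighbouring steps were described by 10 lists with 124 genes, of which 105 were tested. Of these, 3 passed the threshold of the study, all higher, and none lower, where 1.59% and 0.426% of all genes tested passed in these directions. The median Log2FC over the 105 genes was -0.04, with 49 above and 56 below 0. The groups did not overlap for 8 higher and 1 lower, where 3.49% and 2.87% of all genes tested were separated. All 3 genes that passed were transcription factors. Atf4, which drives Chac1, Slc7a11 and Cth in other settings, was measured at 280, 245 and 263 CPM in shCtr against 489, 1210 and 481 CPM in shOSGEP. Every shOSGEP library lay above every control. Its Log2FC was 1.47 (SE 0.4999, edgeR, unadjusted p = 0.0182), with log2 ratios of 0.80, 2.30 and 0.87. Ddit3 (CHOP), a partner and target of ATF4, had a Log2FC of 1.83 (SE 0.632, edgeR, unadjusted p = 0.0192), with log2 ratios of 0.78, 2.73 and 1.16. Without shOSGEP replicate 2 the values were 0.90 for Atf4 (edgeR, unadjusted p = 0.0562) and 0.92 for Ddit3 (edgeR, unadjusted p = 0.0819), and without shCtr replicate 3 they were 1.47 (edgeR, unadjusted p = 0.0617) and 1.63 (edgeR, unadjusted p = 0.0707). Without both replicate 3 libraries they were 1.69 (edgeR, unadjusted p = 0.0956) and 1.98 (edgeR, unadjusted p = 0.0546). Nfe2l1, a relative of NRF2, had a Log2FC of 1.02 (SE 0.422, edgeR, unadjusted p = 0.0405), and leaving out any 1 library took its unadjusted p to between 0.0529 and 0.117. Nfe2l2 itself was measured at 159, 64.3 and 160 CPM in shCtr against 164, 111 and 149 CPM in shOSGEP. Its Log2FC was 0.15 (95% interval -0.92 to 1.21), and the groups overlapped.

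None of the other 9 lists held a gene past the threshold, and 1 gene of each is given by its smallest unadjusted p. In the methionine cycle (8 tested, median Log2FC 0.18), which supplies homocysteine to Cbs, Mtrr, the reductase that keeps methionine synthase active, was measured at 17.2 ± 2.11 CPM in shCtr and 29.6 ± 10.5 CPM in shOSGEP (SD, n = 3 each, edgeR, unadjusted p = 0.108), without overlap. Among genes of cysteine breakdown and sulfide (8 tested, median -0.37), Csad, which leads from cysteine to taurine, was measured at 65.9 ± 27.3 and 34.5 ± 6.29 CPM (edgeR, unadjusted p = 0.0675), again without overlap and lower in shOSGEP. Mfsd12, which carries cysteine into melanosomes and lysosomes, was measured at 61.2 ± 45.3 and 30.4 ± 5.43 CPM, with overlap. Its Log2FC was -1.01 (edgeR, unadjusted p = 0.108) and -0.21 without shCtr replicate 2 (edgeR, unadjusted p = 0.569), which held 113 CPM where the other controls held 32.5 and 37.6. Taurine synthesis and uptake into melanosomes draw on the same cysteine as glutathione.

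Glutathione export, import and breakdown had 13 genes tested, with a median Log2FC of 0.11, and the dipeptidase gene Dpep2 had the smallest p on 1 to 16 counts per library (edgeR, unadjusted p = 0.0798). Among the other peroxidases and glutaredoxins (9 tested, median 0.19), Glrx5, a mitochondrial iron-sulfur carrier, had a Log2FC of -0.71 (edgeR, unadjusted p = 0.329). Among 19 glutathione transferases (median -0.13), Gstt1 was measured at 1.27, 5.997 and 2.86 CPM in shCtr against 4.61, 39.5 and 4.54 CPM in shOSGEP. Its Log2FC was 2.26 (edgeR, unadjusted p = 0.0517) and 0.46 without shOSGEP replicate 2 (edgeR, unadjusted p = 0.539). It passed the threshold of the study with the replicate block (1.76, edgeR, unadjusted p = 0.0150) and with GC and length offsets (2.31, edgeR, unadjusted p = 0.0123), and not without both replicate 2 libraries (1.15, edgeR, unadjusted p = 0.0739). The thioredoxin and peroxiredoxin system (14 tested, median -0.06) was led by Prdx2 at -1.07 (edgeR, unadjusted p = 0.117), which was -0.21 (edgeR, unadjusted p = 0.637) without shCtr replicate 2. NADPH supply, which feeds Gsr, had 2 genes above and 7 below 0 (median -0.46), led by Idh2 at -1.16 (edgeR, unadjusted p = 0.0611), which was -0.54 (edgeR, unadjusted p = 0.219) without both replicate 2 libraries. On the lipid and iron side of ferroptosis (12 tested, median -0.02), the iron exporter Slc40a1 was measured at 11.005, 0.934 and 10.9 CPM in shCtr against 19.6, 33.4 and 17.3 CPM in shOSGEP, without overlap. Its Log2FC was 1.62 (edgeR, unadjusted p = 0.0822) and 0.75 without both replicate 2 libraries (edgeR, unadjusted p = 0.0346).

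**Figure D4:**
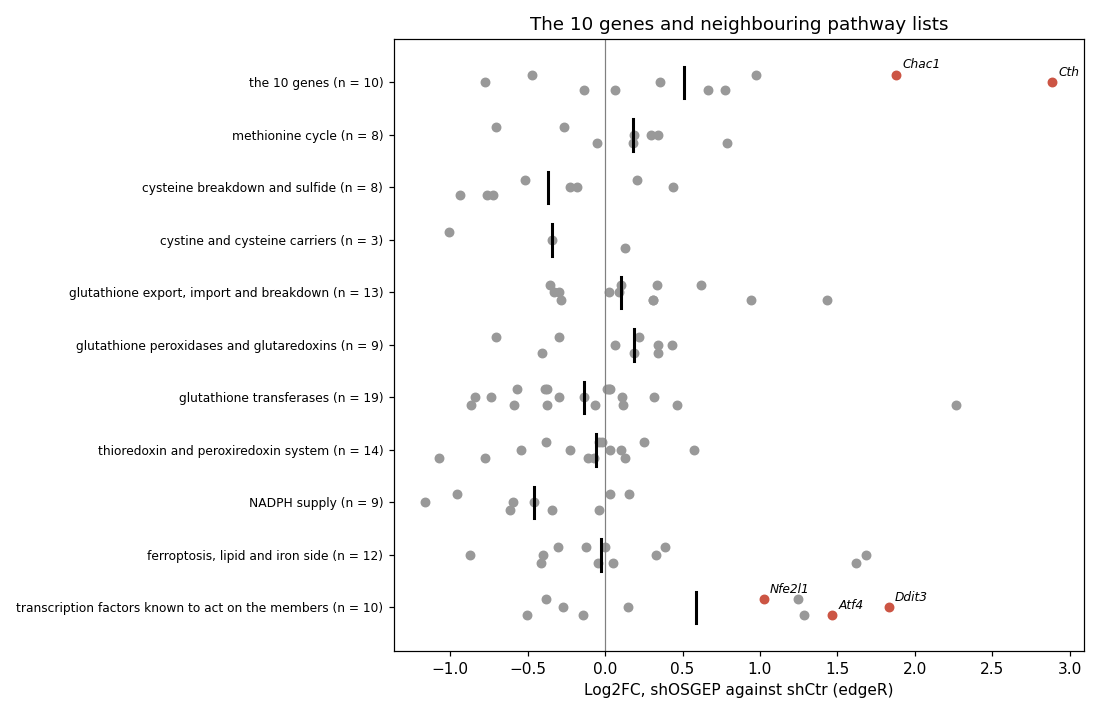
Log2FC of shOSGEP against shCtr (edgeR, all 6 libraries) for the 10 genes (top row) and the tested genes of the 10 neighbouring lists. Each point is a gene, black bars are medians, and red named points passed the threshold of the study. The 5 red points are Cth, Chac1, Atf4, Ddit3 and Nfe2l1, and the medians of the lists run from -0.46 (NADPH supply) to 0.59 (transcription factors).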

How the data were processed

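Libraries of polyA RNA from 3 infections in each group were sequenced in paired reads, per the labels, and no strand setting was stated. The values deposited by the authors are whole-number estimated counts for Ensembl genes, from STAR 2.6.1d and Salmon 1.4.0 on GRCm38 per the submitters' processing notes. The annotation release is not given in the sources used here. Positions, transcript lengths and GC contents came from GENCODE M21 (GRCm38), which held 99.4% of the identifiers.

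shOSGEP was compared with shCtr by edgeR 4.0.16 (R 4.3.3) on the counts as deposited: filterByExpr (minimum count 10, minimum total 15), TMM scaling, the two-sided quasi-likelihood F-test without a block, and Benjamini-Hochberg adjustment over 12669 genes. The code was run on simulated counts drawn independently for each library, without the GC trend or the shared deviations of these data. That run does not show how the fit performs on these libraries. Alternatives were DESeq2 1.42.0, limma-voom with quality weights (limma 3.58.1), other scalings and filters, a replicate block, GC and length offsets (splines with 5 degrees of freedom on log2 CPM with a prior count of 2), and leaving out libraries. Deviations of same-numbered libraries correlated at 0.811, 0.557 and 0.196 across genes, all over 0.1, so the shared numbers of the labels were treated as pairing. The correlation was weak for number 3. Differently numbered libraries were not compared, so these values do not show that the number matters. The labels do not say what a number marks.

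The members and lists were chosen with earlier results of these data known. The named genes were the 10 members, the genes of each list past the threshold of the study (at most 4, or else the 1 with the smallest p), Osgep, Slc3a2, Atf4 and Nfe2l2. Where a symbol had more than 1 identifier, the lowest was used. The floor of 3 counts covers counting error only.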

Additional observations from a re-analysis of the deposited data

How the results depend on the processing

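The count of members past the threshold of the study, 2 of 10, was 3 under limma-voom with quality weights (Cbs added) and under GC and length offsets with or without the replicate block (Slc7a11 added), and ran from 1 to 3 when libraries were left out. The share of all genes past the threshold was 2.02% with the main settings and 4.42% under limma-voom. It was 5.27% under offsets and 6.65% under offsets with replicate block. With DESeq2 it was 2.92%, with no filter beyond 1 count 2.75% and with the replicate block alone 2.94%. When libraries were left out, it ran from 0.52% (without shOSGEP replicate 2) to 3.50% (without shCtr replicate 1). The replicate block alone left the member count at 2, brought Gstt1 past the threshold and changed no other call of a named gene. The members called at an adjusted p under 0.05 were 0 in edgeR and 1 in DESeq2. For the pathway lists, 3 genes passed the threshold, against 7 with DESeq2 and with no filter beyond 1 count, 5 with the replicate block, 11 with limma-voom and with GC and length offsets, 12 with offsets and replicate block, and 0 to 7 when libraries were left out. The cause was not tested.

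For some of the named genes the direction turned with the setting. Log2FC of Gclc was -0.090 under limma-voom, -0.032 under offsets, -0.019 under offsets with replicate block, -0.094 without both replicate 2 libraries and -0.27 to 0.39 when single libraries were left out. Gclm gave -0.62 under offsets and -0.19 with the replicate block added. Gss gave 0.25 under limma-voom, 0.041 under offsets with replicate block, 0.31 without both replicate 2 libraries and -0.94 to 0.82 when single libraries were left out. Gsr gave 0.0028 without both replicate 1 libraries and -0.36 to 0.018 when single libraries were left out, and Gpx4 -1.15 to 0.34. Glrx5 gave 0.031 without both replicate 2 libraries and -1.08 to 0.32 without single libraries. Slc3a2 gave -0.097 and -0.037 without both replicate 1 and both replicate 3 libraries, and -0.15 to 0.78 without single libraries. Nfe2l2 gave -0.072 under limma-voom, -0.0049 under offsets, -0.0028 with the replicate block added, -0.022 without both replicate 2 libraries and -0.17 to 0.35 without single libraries. Cth, Cbs, Slc7a11, Chac1 and Ggct kept their direction under all 18 alternatives. Upper-quartile scaling moved the median Log2FC of all genes from -0.03 to 0.07 and turned no member. Where leaving out a library left 1 arm with 2, the spread was pooled.

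With 3 libraries per group and a biological coefficient of variation of 0.566, the narrowest 95% interval among the members was that of Gclm (0.695-fold to 2.35-fold) and the widest that of Slc7a11 (0.426-fold to 9.09-fold). Counts of 16 for Slc7a11 in shCtr replicate 2 and of 23 to 86 for Cbs limit these genes further. Of the 31-base words of the transcript, 7.42% in Cbs, 3.53% in Slc7a11 and 2.97% in Gclm also occur in other genes.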
